A study of Mus musculus with 4 samples.

Results

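Broad open domains were stretches of at least 1500 bp in which ATAC-Seq peaks of the 4 libraries ran together and every library held a peak. All peaks of the 4 libraries that overlapped by 1 bp or more, on chromosomes 1 to 19 and X, were merged, and the domains numbered 1706 of the 80271 merged regions with a peak in all 4 libraries (2.13%) and of 337776 merged regions in all (0.505%). They were chosen by the width of the merged peaks, so their width and the extent of the peaks in them are given as a description. The 4 libraries came from cells sorted from mouse bone marrow and frozen after the sort, which the labels call ltHSC (long-term hematopoietic stem cells) and the study calls HSPCs. The control libraries are labelled WT, and these mice were Cpt1a fl/fl. The KO libraries are labelled Cpt1a-KO and came from Cpt1a Δ/Δ mice, that is floxed mice crossed with Vav1-Cre+ mice, in which the Cre removes the gene throughout the hematopoietic system, and all mice were on a C57BL/6, CD45.2 background. The labels do not say whether the libraries came from separate animals, so the spread between libraries may be technical. The lists hold peaks and no reads, so the depth behind each list is unknown.

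ATAC-Seq uses a transposase that cuts DNA where no nucleosome is in the way, and a peak caller then marks intervals with many cuts and a summit at each local maximum. Most open sites are short enhancers or promoters. Broad stretches are known mainly from CpG-rich promoters, where CG dinucleotides stay unmethylated and several transcription start sites and neighbouring nucleosome-free gaps lie close together. Broad active stretches are also known at genes of transcription factors that hold cell identity. Cpt1a, the deleted gene, loads long-chain fatty acids onto carnitine for transport into mitochondria, the rate-limiting step of their oxidation.

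Promoter sequences are given here for some of the genes that the results turn on. The 300 bp windows run from 250 bases before to 50 after the first base of a transcript, are from RefSeq (GRCm38.p6, the assembly named mm10 in the submitters' processing notes) and are written 5′ to 3′ on the gene's strand, with CG dinucleotides in capitals. Jun (chr4:95052173-95052472, minus strand) is shown for the widest domain at a gene of known function, Ezh2 (chr6:47594981-47595280, minus) for one of the strongest, and Kit (chr5:75574737-75575036, plus) as a receptor that marks stem cells. Hadha (chr5:30154931-30155230, minus) is shown for fatty acid oxidation, Hspa1a (chr17:34972107-34972406, minus) and Hspa1b (chr17:34959189-34959488, minus) as near-identical copies with a domain each, and Adamts12 (chr15:11064523-11064822, plus) as a CpG-poor member.
Jun: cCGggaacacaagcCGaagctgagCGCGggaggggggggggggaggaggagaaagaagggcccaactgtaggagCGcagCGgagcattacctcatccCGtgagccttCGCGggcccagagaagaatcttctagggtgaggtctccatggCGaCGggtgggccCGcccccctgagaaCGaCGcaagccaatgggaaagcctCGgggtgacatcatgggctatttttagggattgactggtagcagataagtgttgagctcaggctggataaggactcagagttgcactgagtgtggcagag
Ezh2: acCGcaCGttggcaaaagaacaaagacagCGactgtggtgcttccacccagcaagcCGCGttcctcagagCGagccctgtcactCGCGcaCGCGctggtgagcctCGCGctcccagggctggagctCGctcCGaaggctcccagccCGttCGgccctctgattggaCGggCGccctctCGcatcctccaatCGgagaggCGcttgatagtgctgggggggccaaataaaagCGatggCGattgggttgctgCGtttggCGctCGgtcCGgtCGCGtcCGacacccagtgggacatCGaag
Kit: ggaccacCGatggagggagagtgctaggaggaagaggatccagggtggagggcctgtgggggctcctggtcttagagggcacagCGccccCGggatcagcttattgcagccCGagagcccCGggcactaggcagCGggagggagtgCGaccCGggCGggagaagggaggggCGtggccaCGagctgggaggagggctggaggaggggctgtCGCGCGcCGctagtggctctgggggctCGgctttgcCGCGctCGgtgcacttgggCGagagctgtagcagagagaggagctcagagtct
Hadha: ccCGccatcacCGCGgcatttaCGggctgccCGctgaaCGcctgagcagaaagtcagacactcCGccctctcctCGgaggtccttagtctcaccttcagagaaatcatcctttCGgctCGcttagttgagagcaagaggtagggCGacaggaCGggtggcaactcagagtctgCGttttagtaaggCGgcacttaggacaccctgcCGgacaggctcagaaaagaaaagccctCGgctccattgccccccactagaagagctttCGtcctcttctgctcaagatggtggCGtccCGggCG
Hspa1a: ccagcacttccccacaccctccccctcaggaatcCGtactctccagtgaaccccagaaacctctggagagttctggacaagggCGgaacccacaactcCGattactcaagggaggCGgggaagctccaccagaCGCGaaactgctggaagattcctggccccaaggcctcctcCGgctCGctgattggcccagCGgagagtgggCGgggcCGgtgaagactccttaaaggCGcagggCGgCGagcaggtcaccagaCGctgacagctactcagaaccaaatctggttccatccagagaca
Hspa1b: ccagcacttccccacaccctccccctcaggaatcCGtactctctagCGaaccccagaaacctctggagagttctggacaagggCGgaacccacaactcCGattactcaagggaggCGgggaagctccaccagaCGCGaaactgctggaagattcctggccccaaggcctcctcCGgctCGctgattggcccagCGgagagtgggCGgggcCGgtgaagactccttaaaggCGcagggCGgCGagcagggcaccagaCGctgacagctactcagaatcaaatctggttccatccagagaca
Adamts12: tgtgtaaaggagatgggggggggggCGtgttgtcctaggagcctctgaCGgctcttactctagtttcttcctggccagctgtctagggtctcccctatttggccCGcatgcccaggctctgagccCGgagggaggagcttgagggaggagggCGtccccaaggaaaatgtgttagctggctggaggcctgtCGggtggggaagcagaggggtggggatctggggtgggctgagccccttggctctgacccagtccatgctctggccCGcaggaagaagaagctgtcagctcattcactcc
The Ezh2 window held 31 CG dinucleotides, the Kit and Hadha windows 20 each, and Jun 15. Hspa1a held 15 and Hspa1b 16. Adamts12 held 7.

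The 1706 domains had a median width of 1659 bp (interquartile range 1567 to 1808 bp) and together spanned 2.94 Mb. Of these, 180 reached 2000 bp, and the widest measured 3456 bp. At the minimum width, 5 regions measured exactly 1500 bp and 6 were 1 bp narrower. Just inside lay the regions at Socs1, Pfkfb3 and Gm42211 (1500 bp each), and just outside those at Tspan31, Uqcrq and Gm40447 (1 bp narrower each). The Socs1 region was covered over 1487, 1248, 1124 and 1179 bp in control 1, control 2, KO 1 and KO 2, and the Tspan31 region over 1000, 978, 603 and 699 bp. The domains were spread over every chromosome used, from 42 on X to 136 on chromosome 2. The median distance to the nearest other domain was 279 kb, and 93 domains had another within 20 kb.

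The widest of all lay near the end of chromosome 9 (124422505 to 124425960) over LOC108167694, 4930526I15Rik and Gm20783. It was covered over 3429 and 3436 bp in the controls and 3173 and 3431 bp in the KO libraries, and it held the most summits of any domain (19, 20, 18 and 21). Next came Jun (chromosome 4, 95049781 to 95052877, 3097 bp), which encodes a subunit of the AP-1 transcription factor, and Rreb1 (2944 bp), a zinc finger factor of Ras signalling. Among the 20 widest were also Nr3c1 (2576 bp), the glucocorticoid receptor, Sp3 (2509 bp), a factor that binds GC boxes, and Ncoa2 (2645 bp), a coactivator of nuclear receptors. The 2 inducible Hsp70 genes each had a domain, Hspa1a of 2728 bp and Hspa1b of 2586 bp. Reads from such near-identical copies can be placed at either, so the values of these 2 domains are uncertain. Htr1b (2882 bp), Rims2 (2782 bp) and Nrg3 (2715 bp), genes best known from neurons, were also among the 20.

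The widest domains were not the strongest. The fold at a summit is the authors' ratio of its signal to the local background, and the highest fold in a domain is called its top fold here. In the Nrg3 domain the top fold was 4.24 in control 1, 5.30 in control 2, 4.26 in KO 1 and 3.89 in KO 2. In the Ezh2 domain (chromosome 6, 47594176 to 47595704, 1529 bp), at the gene of the PRC2 methyltransferase, it was 19.97 and 20.97 against 22.2 and 20.5. Kdm4c, a histone demethylase gene, had the highest top folds by its lowest library (25.4, 24.5, 24.3 and 23.5), followed by Serbp1, Ezh2, Septin7 and the shared domain of Ro60 and Uchl5. Over all domains the median top fold was 10.9 in control 1, 10.5 in control 2, 10.7 in KO 1 and 10.0 in KO 2. In narrower regions of all 4 libraries it was 5.97, 6.06, 5.80 and 5.29, while in those of 1000 to under 1500 bp it was 12.2, 11.9, 11.8 and 10.9, above the broad domains in each library.

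The broad domains lay mostly at the ends of genes. A gene end, the first or last base of a RefSeq gene, fell inside 1178 domains (69.1%) and within 1000 bp of another 156, so that 1334 domains (78.2%, 95% exact binomial interval 76.2 to 80.1) were at a gene end. In regions of 1000 to under 1500 bp the share was 62.0%, in those of 500 to under 1000 bp 28.3% and in those under 500 bp 15.2%. Of the rest, 274 domains lay inside a gene away from its ends, as the one in Kdm6b did, and 98 lay between genes. A wider region offers more bases for an end to fall in. Measured from the midpoint of the region, which removes that advantage, the share was 71.1% for the broad domains and 58.1% at 1000 to under 1500 bp. These intervals cover counting error only, and neighbouring regions are not independent.

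**Figure D1:**
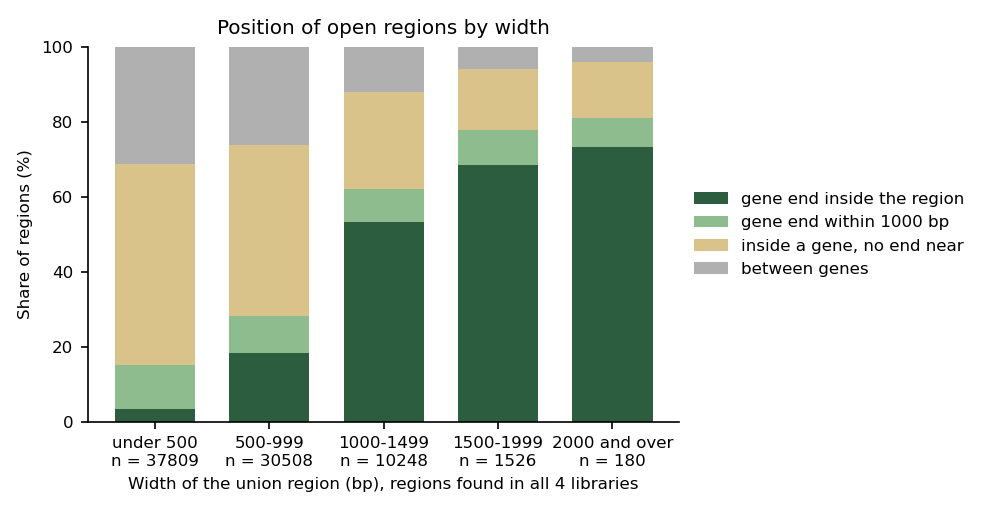
Share of regions of all 4 libraries (y axis, %) by position relative to RefSeq genes, for 5 classes of width (x axis, bp, with the number of regions under each). The share with a gene end inside or within 1000 bp rose from 15.2% under 500 bp to 62.0% at 1000 to under 1500 bp, and was 77.9% at 1500 to under 2000 bp and 81.1% at 2000 bp and over.

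Transcription starts were counted from a second RefSeq table, which also lists alternative starts inside genes. It has no entries for chromosome 18, and on the other chromosomes 1068 of 1656 domains (64.5%) held at least 1 start, against 50.5% at 1000 to under 1500 bp, 16.2% at 500 to under 1000 bp and 2.31% under 500 bp. At least 2 starts lay in 333 domains, and 211 domains held the starts of at least 2 genes, 201 of them on opposite strands. Hadha and Hadhb, the 2 subunits of the mitochondrial trifunctional protein, shared such a domain (chromosome 5, 30154542 to 30156103), as did Mcm7, a subunit of the replicative helicase, and Ap4m1. Among regions that held a start, the share with the starts of at least 2 genes was 19.8% in the broad domains and 18.5% in the class below.

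Domains extended further into the gene than away from it. In 735 domains with exactly 1 start, the median extent was 998 bp downstream of the start and 691 bp upstream, and 65.9% reached further downstream. The asymmetry was in each library, with medians of 943 and 931 bp downstream in the controls and 903 and 887 bp in the KO libraries. Upstream the medians were 632 and 638 bp against 588 and 594 bp. The KO libraries were shorter on both sides of the start, by values that did not overlap with the controls. Extent is what the width rule chose, and control intervals alone chose more domains (1299) than KO intervals alone (553). The KO lists also covered fewer bases of the genome (42.6 and 44.4 Mb against 52.9 and 48.9 Mb). These extents were not scaled by library totals.

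**Figure D2:**
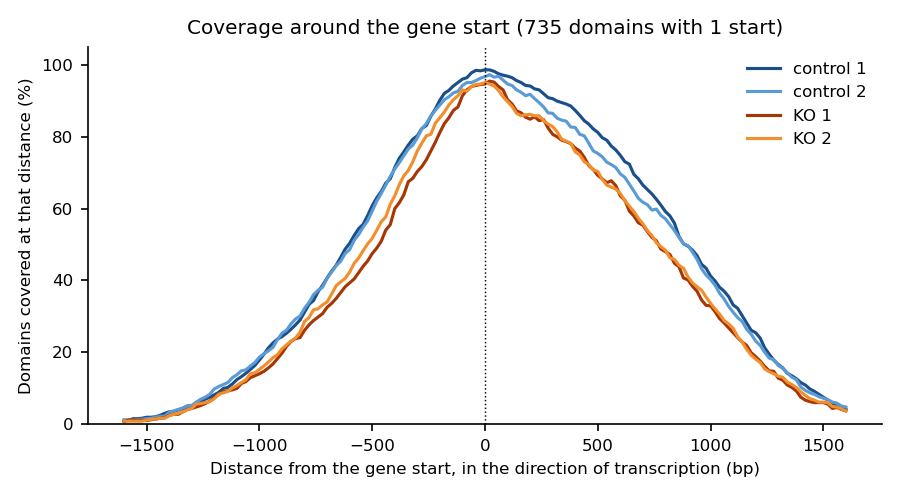
Share of the 735 domains with a single gene start that were covered by a peak (y axis, %) at each distance from the start (x axis, bp, positive in the direction of transcription), 1 line per library. All 4 lines peak at the start and fall more slowly downstream, and the 2 KO lines run below the 2 control lines over most of both flanks.

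The promoters in broad domains were rich in CpG. Their 1527 windows had a median GC content of 66.3% and 27 CG dinucleotides, against 63.7% and 24 at 1000 to under 1500 bp, 58.7% and 17 in narrower regions of all 4 libraries, and 47.0% and 3 where no library had a peak. At least 10 CG dinucleotides were held by 90.8%, and 18 windows held at most 3. The step from the class below was small beside the step from closed promoters. The GC box, searched as GGGCGG on both strands, was in 73.1% of the windows, in 71.0% at 1000 to under 1500 bp and in 35.9% of all 32619 promoters. The CCAAT box (CCAAT) was in 31.2%, 35.3% and 37.6%, and the TATA box (TATAAA) in 5.44%, 5.07% and 13.7%. An ETS core (CCGGAAG) was in 11.7% of the windows in broad domains and 18.6% at 1000 to under 1500 bp, against 8.92% of all promoters. RUNX letters (TGTGGT) were in 9.04%, 11.4% and 16.6%, and GATA letters (AGATAA) in 3.93%, 4.595% and 11.2%. The AP-1 letters TGANTCA were in 3.21% of the windows in broad domains and 7.85% of all promoters. These are matches of letters in the window and not binding sites.

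By number, protein coding genes were the main holders. A broad domain lay within 1000 bp of 1676 of 21631 protein coding genes (7.75%) and of 2145 of 49554 genes of all kinds (4.33%). Among long noncoding RNA genes the share was 2.78%, among pseudogenes 0.142%, and none of 394 immunoglobulin and T cell receptor V segments had a domain. The highest share was that of tRNA genes, at 58 of 408 (14.2%, 95% exact binomial interval 10.97 to 17.99). A single domain held up to 4 tRNA genes, so these genes are not independent and the interval is too narrow. A start inside a domain was found for 1094 of 17274 protein coding genes (6.33%) with a start in the table. Elf2, Plekha7 and Rai1 each had 3 domains, which was the most for any gene. Runx1, a transcription factor that blood stem cells need in order to form, had 2, of 1777 and 1603 bp.

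The share of genes with a domain ranged from 0 to 27.3% over the lists used for this tissue, beside 7.75% of protein coding genes, and no difference between lists was tested. Of 31 stem cell regulators 7 had a domain (Hhex, Runx1, Prdm16, Zfp36l2, Cbfb, Fli1 and Lmo2), and of 22 stem and progenitor surface genes 3 had one (Cxcr4, Cd9 and Kit). Of 22 myeloid genes 6 had a domain, among them Cebpa, Cebpb and Cebpd, the C/EBP factors of granulocyte differentiation, and Csf1r, the receptor of a macrophage growth factor. The others were Csf2ra and Fcgr3. The Fcgr3 domain also held 4 tRNA genes, and its values are uncertain. Of the 6 genes, only Cebpa and Cebpb had a start inside the domain. Of 36 chromatin genes 8 had one, including the DNA methylation enzymes Dnmt3a and Tet1, the acetyltransferases Crebbp and Ep300, and Ezh2. A domain was found for 1 of 21 erythroid and megakaryocyte genes (Itgb3), 1 of 15 T cell genes (Cd247), 0 of 15 B cell genes and 0 of 24 genes of other tissues. Among housekeeping genes it was found for 1 of 45 ribosomal protein genes (Rpl7) and 1 of 33 oxidative phosphorylation genes (Ndufa1). With so few genes, the 95% exact binomial intervals of these 6 lists reached up to 23.8%, 31.9%, 21.8%, 14.2%, 11.8% and 15.8%, in the order given, and all held 7.75%. The intervals of stem cell regulators (9.59% to 41.1%), myeloid genes (10.7% to 50.2%) and chromatin genes (10.1% to 39.2%) lay above it. Those of the remaining lists held it. The intervals are not corrected for the number of lists, and the lists were chosen with earlier results of these data known. They are given as a description, and no enrichment of a list was tested. Of 30 immediate early genes 4 had a domain (Jun, Ier5, Atf3 and Ier2), and of 39 cell cycle genes 4 (E2f1, Rb1, Cdkn2c and Mcm7). Of 27 fatty acid oxidation genes 3 had one (Ppara, a nuclear receptor that drives such genes, and the pair Hadha and Hadhb). Gene length differs between the lists, with a median of 71816 bp for chromatin genes and 3352 bp for ribosomal protein genes, and its part in these shares was not tested.

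Cpt1a itself had no broad domain. The gene (chromosome 19, 3322326 to 3385735) held 10 regions of all 4 libraries, of which the widest measured 979 bp and was covered over 882 and 855 bp in the controls and 767 and 898 bp in the KO libraries. The groups overlapped there.

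Small RNA genes were found in broad domains as well. tRNA genes, short units transcribed by RNA polymerase III, lay in 26 domains (1.52%), which held 51 of them, against 0.429% of regions at 1000 to under 1500 bp and 0.216% at 500 to under 1000 bp. On chromosome 1, 4 domains with at least 3 tRNA genes each lay between 171063699 and 171103455, the first of them over Fcgr3, the low-affinity IgG receptor III. That domain (2520 bp) was covered over 2502 and 2283 bp in the controls and 2281 and 2186 bp in the KO libraries, unbroken in each. The same kinds of tRNA gene recur along this cluster, and copies that share reads make these values uncertain.

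In every library most of the domain bases were covered, and more of them in the controls. Peaks covered 89.0% and 86.9% of the domain bases in control 1 and control 2 and 75.7% and 78.2% in KO 1 and KO 2. In bases, that was 2.62 and 2.56 Mb in the controls (2.59 ± 0.043 Mb, SD, n = 2) against 2.23 and 2.30 Mb in the KO libraries (2.26 ± 0.051 Mb, SD, n = 2), a difference of 0.324 Mb and a ratio of 1.14. The groups did not overlap, and the difference exceeded the spread within either group. Its size depended on which libraries chose the domains. In the 553 domains chosen by the width of the KO intervals alone the groups had 0.901 and 0.856 Mb (a difference of 0.0448 Mb), and in the 1299 chosen by the control intervals alone 2.05 and 1.77 Mb (0.285 Mb). It was not particular to the broad domains: in regions of 1000 to under 1500 bp the covered share was 86.5% and 85.3% against 72.9% and 76.1%, a difference of 11.4 percentage points beside 11.0 in the domains. The control lists also covered more of the genome, with 52.9 and 48.9 Mb against 42.6 and 44.4 Mb. As a share of the library's own covered bases the domains took 4.95% in control 1, 5.23% in control 2, 5.23% in KO 1 and 5.18% in KO 2, so the groups overlapped and the sign turned (control minus KO −0.118 percentage points, exact two-sided permutation p = 0.667). With 2 libraries against 2 the smallest p of that test is 0.333, so no difference in these data can pass 0.05. Without control 1, which also left fewer domains (1150), the difference in covered bases was 0.200 Mb (1.81 against 1.61 Mb).

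**Figure D3:**
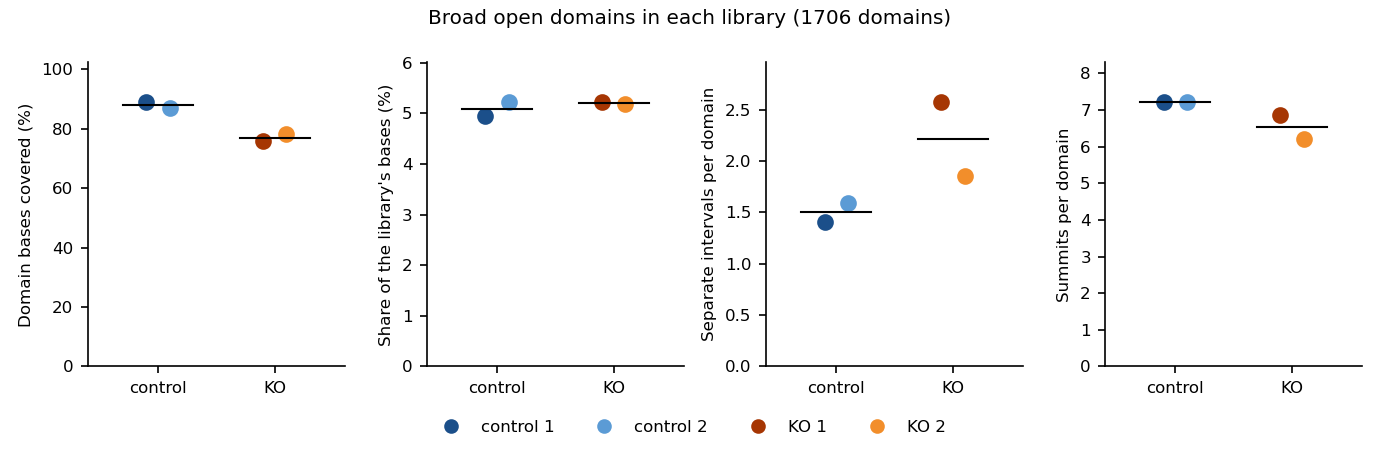
Values per library (points) and group means (lines) over the 1706 broad domains for, from left, the covered share of domain bases (%), the share of the library's covered bases that lies in domains (%), separate peak intervals per domain and summits per domain. Control 1 and 2 lie above KO 1 and 2 in covered share (89.0% and 86.9% against 75.7% and 78.2%) and in summits, below them in intervals, and among them in the share of the library's bases.

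The missing bases in the KO libraries lay both at the edges of the domains and inside them. From the first to the last covered base a domain ran over a mean of 1606 and 1608 bp in the controls and 1525 and 1520 bp in the KO libraries. Between those bases, gaps took a mean of 72.5 and 111 bp in the controls and 220 and 173 bp in the KO libraries. The domains were in more separate intervals in the KO libraries, with 2.58 and 1.85 per domain against 1.404 and 1.597 in the controls. This was not particular to them: regions of 1000 to under 1500 bp had 1.86 and 1.40 against 1.21 and 1.27. Over the whole lists the median interval was 140 and 157 bp in the KO libraries and 179 and 183 bp in the controls. A domain covered by a single unbroken interval was the most common state in control 1 (1136 domains, 66.6%) and control 2 (918, 53.8%), and less common in KO 2 (669, 39.2%) and KO 1 (303, 17.8%). KO 1 stood apart in this measure, with a longest interval of 2361 bp where the other libraries reached 3429 to 3436 bp. Without KO 1 the difference in intervals per domain shrank from −0.72 to −0.38, and without KO 2 it grew to −1.09.

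Summits followed the covered bases less closely. Control 1 and control 2 had 12294 and 12316 summits inside the domains, against 11728 and 10600 in KO 1 and KO 2, a mean of 7.21 and 7.22 per domain against 6.87 and 6.21. The difference of 1141 summits had an exact two-sided permutation p of 0.333, the smallest possible. It rested in part on KO 2, without which it was 520.5 summits, and with the 100000 strongest summits of each list it was −12. Per kb of covered sequence, KO 1 had the most summits (5.27) and KO 2 the fewest (4.61), with the controls between them at 4.70 and 4.82. Neighbouring summits in a domain lay a median of 208 and 209 bp apart in the controls and 212 and 221 bp in the KO libraries, and 210 to 222 bp apart at 1000 to under 1500 bp.

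Summit positions were shared between libraries. A list with more summits offers more partners, so the libraries are compared here against 1 list at a time. A summit of KO 2 lay within 50 bp of 69.1% of the KO 1 summits, and of 67.2% and 67.0% of those in control 1 and control 2. A summit of KO 1 lay near 76.4% of the KO 2 summits, and near 73.8% and 73.1% of those in the controls. Against either KO list, the other KO library matched more often than either control. Against the control lists this was not so. A summit of control 1 lay near 76.6% of the control 2 summits and near 77.1% and 77.8% of those in KO 1 and KO 2. A summit of control 2 lay near 76.6% of the control 1 summits and near 76.7% and 77.6% of those in KO 1 and KO 2. The matched libraries also differed in their own number of summits in the domains (12294 in control 1, 12316 in control 2, 11728 in KO 1 and 10600 in KO 2). Against each list, the library with fewer summits had the higher share, so genotype cannot be told apart from list length here.

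Domain by domain, the controls were ahead in most. In 966 domains (56.6%) both controls covered more bases than both KO libraries, where 35.8% of all 80271 regions did so and 47.2% of those at 1000 to under 1500 bp. In 35 domains (2.05%) both KO libraries covered more, where 6.85% of all regions did so, and in 705 the groups overlapped. The mean of the controls was higher in 1522 domains and that of the KO libraries in 181, and the median difference was 10.1 percentage points of the domain's width. Both the choice of domains and the scale moved these counts. When the width of the merged KO intervals alone chose the domains, the controls were ahead in 205 of 553 (37.1%), and when that of the control intervals alone chose them, in 839 of 1299 (64.6%). When each library's bases were divided by its total, the controls were ahead in 209 of the 1706 domains (12.3%, where 16.1% of all regions were) and the KO libraries in 480 (28.1%, where 22.4% were), so the balance turned. The 35 domains in which KO covered more were KO-higher on both scales. This was certain beforehand, since both KO totals were below both control totals. Without control 1, control 2, KO 1 or KO 2, there were 1150, 1264, 1582 and 1432 domains, since a domain was then chosen by 3 libraries. Of these, 96, 79, 171 and 84 were KO-higher and 789, 922, 1065 and 1106 control-higher (68.6%, 72.9%, 67.3% and 77.2%), so both counts rose as shares, as fewer libraries overlap less often.

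**Figure D4:**
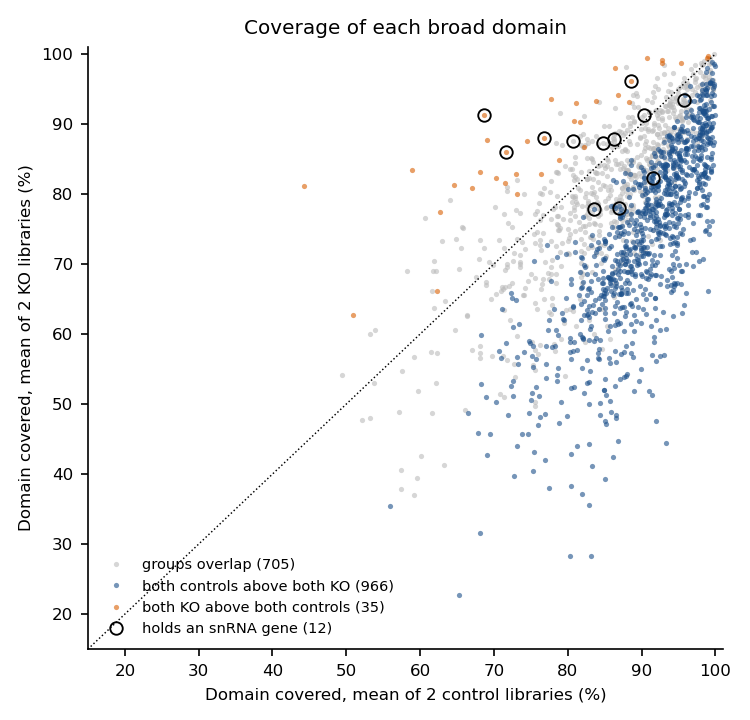
Covered share of each of the 1706 broad domains, as the mean of 2 control libraries (x axis, %) and of 2 KO libraries (y axis, %), with the line of equality dotted. Blue marks the 966 domains with both controls above both KO libraries, orange the 35 with the reverse and grey the 705 with overlap, and black rings mark the 12 domains that hold an snRNA gene, 4 of which are orange.

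By summits, the controls were ahead in 360 domains (21.1%) and the KO libraries in 66 (3.87%). The shares were 9.1% and 2.18% of all regions, and 16.6% and 3.26% at 1000 to under 1500 bp. Divided by each library's total of summits, the controls were ahead in 382 (22.4%) and the KO libraries in 195 (11.4%). Here the shares were 10.7% and 10.2% of all regions, and 20.1% and 11.0% at 1000 to under 1500 bp. By number of intervals, the KO libraries had more pieces in 363 domains (21.3%) and the controls in 11 (0.645%). They did so in 4.29% and 0.329% of all regions, and in 12.2% and 0.595% at 1000 to under 1500 bp. By top fold, the controls were ahead in 400 (23.4%, where 26.2% were) and the KO libraries in 226 (13.2%, where 12.3% were). The height of the strongest summit thus differed between genotypes about as often as in other regions. The 98 domains between genes were the least covered class of position in each library, at 85.3% and 84.0% of bases in control 1 and 2 and 67.1% and 71.6% in KO 1 and 2. The controls were ahead in 60 of them (61.2%) and KO in 0, beside 56.6% and 2.05% of all domains.

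The KO-higher domains included immediate early genes. In the Jun domain peaks covered 2087 and 1915 bp in the controls and 2479 and 2559 bp in the KO libraries, with 13 and 11 summits against 15 and 15. The controls covered the domain in 3 and 4 pieces and left most of a stretch to one side of its centre bare, and KO 2 covered it in a single piece. Control minus KO was −16.7 percentage points of its width, while the top fold was 6.76 and 6.87 against 6.69 and 5.58. Ier2 (chromosome 8, 84661631 to 84663168), a nuclear protein gene induced within minutes of stimulation, was covered over 1194 and 931 bp in the controls and 1354 and 1344 bp in the KO libraries, without a gap in the latter. Its difference was −18.6 percentage points, and −10.1 without control 2. Of the other immediate early genes, Atf3 was higher in the controls (1576 and 1534 bp against 1324 and 1425 bp) and Ier5 overlapped between the groups (1409 and 1673 bp against 1253 and 1425 bp). The 4 genes thus did not move one way.

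Other domains had a large KO excess as well. Lingo1 (chromosome 9, 56795730 to 56797280), a membrane protein gene of neurons, was covered over 849 and 976 bp in the controls and 1353 and 1235 bp in the KO libraries. Where a −log10 q of 5 or more was required, the Lingo1 difference was nearly gone, at −1.32 percentage points instead of −24.6. With the 100000 strongest summits of each list it was −22.2, with no control peak left there. The KO mean was 22.2% of the width in both settings. At a −log10 q of 5 or more it came from KO 1 alone, as the highest value in KO 2 was 2.56. The domain over Tex14, a gene of germ cell bridges, and the snRNA gene Gm22068 was covered over 1234 and 1143 bp against 1568 and 1590 bp. Twist1, a mesodermal transcription factor gene, was covered over 1484 and 1488 bp against 1857 and 1769 bp. The peaks of 2 of these were low, with top folds of 3.51 to 5.45 in the Lingo1 and Twist1 domains.

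The control excess was largest near Cd69. That domain, 6 bp from Cd69 (chromosome 6, 129265655 to 129267318), the gene of an early activation marker of lymphocytes, was covered over 1246 and 1523 bp in the controls and 699 and 243 bp in the KO libraries, with top folds of 3.22 and 3.58 against 3.02 and 3.02. At Plppr3 it was 1408 and 1319 bp against 700 and 259 bp. In both, KO 2 held the least, and without KO 2 the differences were 41.2 and 39.1 percentage points where they had been 54.9 and 52.1. Gipc1, an adaptor of vesicle traffic, had strong summits in all libraries (20.3 and 17.7 against 22.6 and 17.9) and yet was covered over 1578 and 1441 bp in the controls and 791 and 648 bp in the KO libraries. Arhgef10l (1606 and 1194 bp against 508 and 694 bp) and Trim14 (1952 and 1636 bp against 993 and 664 bp) completed the 5 with the largest excess. All 5 were also control-higher when divided by library totals. With a −log10 q of 5 or more the Plppr3 difference was 29.1 percentage points. For Gipc1, Arhgef10l and Trim14 it was 48.5, 70.8 and 57.7. Near Cd69 it was 41.3, with a KO mean of 0, and rested on control 2 alone. The highest −log10 q near Cd69 was 7.36 for control 2, but 4.59 for control 1, 3.47 for KO 1 and 2.65 for KO 2. The top fold of the Trim14 domain was higher in the KO libraries (13.3 and 12.5 against 14.6 and 14.7), so covered width and height moved in opposite directions there.

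**Figure D5:**
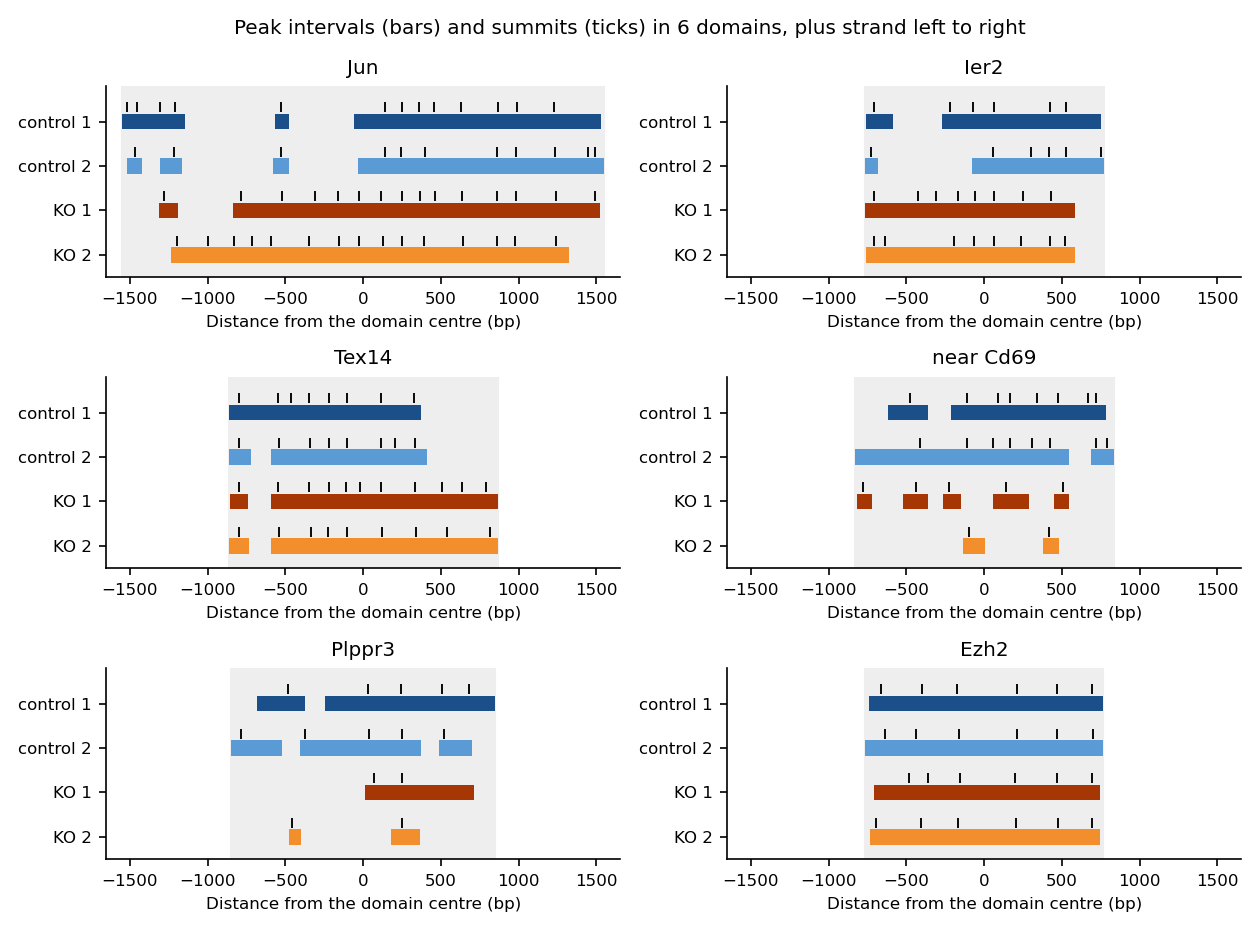
Peak intervals (bars) and summits (ticks) of each library in 6 broad domains (grey), by distance from the domain centre (x axis, bp, plus strand from left to right). Jun, Ier2 and Tex14 are covered more in the KO libraries, the domains near Cd69 and at Plppr3 more in the controls, and the Ezh2 domain is covered nearly end to end in all 4 (1506, 1528, 1450 and 1482 bp).

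Of 8 domains at stem cell regulators, the controls covered more in 2, both at Runx1, and the KO libraries in 0, and the groups overlapped in 6. Over all 1706 domains the controls were ahead in 56.6% and the KO libraries in 2.05%, so that 0 of 8 says nothing about the list. Hhex, a homeobox factor, was covered over 1742 and 1841 bp in the controls and 1712 and 1774 bp in the KO libraries, and Zfp36l2, an mRNA decay factor, over 1618 and 1730 bp against 1662 and 1714 bp. Both overlapped between the groups. The Kit domain was covered over 1503 and 1355 bp against 1258 and 1401 bp, and the Cxcr4 domain, at the chemokine receptor that keeps stem cells in the marrow, over 1797 and 1731 bp against 1998 and 1621 bp. Divided by library totals, the Hhex, Zfp36l2, Kit and Cxcr4 domains were KO-higher, as were 28.1% of all broad domains. The wider Runx1 domain, inside the gene, was covered over 1723 and 1777 bp against 1679 and 1315 bp, and the other, also inside it, over 1362 and 1410 bp against 1253 and 1116 bp.

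Of 6 domains at myeloid genes the controls covered more in 4, of 8 at chromatin genes in 4 and of 4 at cell cycle genes in 3, and the KO libraries in 0 of each. Over all domains the shares were 56.6% and 2.05%, and counts this small show nothing particular to these lists. The 2 Itgb3 domains, at the platelet integrin beta 3 gene, were covered over 1229 and 1144 bp against 726 and 926 bp and over 1578 and 1234 bp against 1019 and 1107 bp. Cebpd was nearly fully covered in all libraries (1631, 1590, 1627 and 1602 bp), and Cebpa ranged from 963 bp in KO 1 to 1674 bp in control 1. Both domains at fatty acid oxidation genes were higher in the controls. The shared domain of Hadha and Hadhb was covered over 1237 and 1490 bp against 1215 and 1183 bp, and the Ppara domain over 1355 and 1494 bp against 1287 and 1288 bp. The median excess of 10.1 percentage points over all domains exceeded that at Ppara (7.56) and was near that at Hadha (10.5). On the scale of library totals neither was higher in the controls.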

How the data were processed

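ATAC-Seq of sorted bone marrow cells gave 2 control and 2 KO libraries. Per the submitters' processing notes, reads were aligned to mm10 with Bowtie2 and peaks were called with MACS2, with no versions given in the sources used here. The authors called peaks per library and deposited 1 list each, with a row per summit. Of the deposited values, the fold is a ratio of summit signal to background, and the −log10 p and the −log10 q that the authors gave rank the summits. The deposited lists hold no counts of reads, so no depth or precision per peak can be given. The 253 to 492 summits per list that were given as chromosome positions were read so.

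Intervals were merged (1 bp, autosomes and X) in Python 3.11.15 (pandas 2.3.3, numpy 2.4.6). Covered bases, summits and separate intervals were summed per region and library. Group means were compared with exact two-sided permutation tests (scipy 1.17.1), which rank the observed split of the libraries among all splits. Their p measures neither the size of a difference nor the spread between libraries. Shares carry exact Clopper-Pearson intervals at 95%. Genes and promoters came from RefSeq tables for GRCm38.p6. The gene table used gives no strand, and starts came from the promoter table, which has no entries for chromosome 18. The procedures were tested on simulated data.

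Named were the 20 widest domains, the 10 with most summits, the 5 per direction with the largest difference among non-overlapping groups, the 5 with the highest lowest top fold, the 3 regions on each side of the width limit, up to 4 genes per list and Cpt1a. Some of the domains named so are not reported here. Twist1, Gm22068, the snRNA domains, further list genes and comparisons with neuronal genes were picked after their values were seen. The domains and gene lists were chosen with earlier results of these data known. Alternatives were widths of 1000 and 2000 bp, a −log10 q of at least 5, lists of equal length (240881 summits), the 100000 strongest summits, domains chosen by the width of control or KO intervals alone, autosomes only, scaling by library totals, other definitions of a gene end, a replicate block and leaving out each library.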

Additional observations from a re-analysis of the deposited data

How the results depend on the processing

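A minimum width of 1000 bp gave 11954 domains, with 5801 control-higher, 394 KO-higher and 64.3% at a gene end. A width of 2000 bp gave 180, with 113, 6 and 81.1%. Domains chosen by control width had 15 KO-higher and 80.6% at a gene end, and the 553 chosen by KO width had 205 control-higher and 81.9%. A −log10 q of at least 5 left 21 KO-higher. Counting only ends inside the region gave 69.1%, ends near its midpoint 71.1%, and protein coding genes only 70.4%. Over library totals 209 were control-higher and 480 KO-higher, and the difference in covered bases turned to −0.118 percentage points. The difference in summits turned to −12 with the 100000 strongest summits. The difference in the share of covered bases turned to 0.0648 percentage points with lists of equal length. Leaving out 1 library gave 79 to 171 KO-higher, 78.9% to 80.3% at a gene end, 0.200 to 0.307 Mb in covered bases and −1.09 to −0.38 in intervals per domain. The causes were not tested.

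Replicate numbers did not pair the libraries by their deviations over domains (r = 0.0644). With the replicate block, the difference in covered bases stayed 0.324 Mb with an exact sign-flip p of 0.5, the smallest such a test of 2 pairs allows. Of the 186 repeats of a result, 3 turned, 38 moved and 145 did neither. For differences between the groups over all domains, which no test of 2 against 2 can call, only the direction was judged. Their size changed with the domains chosen: short of the turned ones, and of scaling by totals, that in covered bases ran from 0.0448 Mb (chosen by KO width) to 1.71 Mb (1000 bp), and that in summits from 168 (2000 bp) to 5889.5 (1000 bp). Depth is unknown, so how far weaker peaks in 1 library set its covered bases cannot be told from these lists.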

Other observations

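Domains that hold an snRNA gene, most of which serve the spliceosome, were counted apart, a group picked after its values were seen, so that no test of it was made. Of 12 such domains, the KO libraries covered more bases in 4 (33.3%) and the controls in 2 (16.7%), and the groups overlapped in 6, where over all 1706 domains KO was ahead in 2.05% and the controls in 56.6%. Peaks covered 86.4% and 81.8% of their bases in control 1 and control 2, against 82.8% and 91.2% in KO 1 and KO 2, values that overlapped, and they held 8.67 and 8.58 summits each against 9.58 and 9.42. The domain with Rnu5g, a U5 snRNA gene, was covered over 1233 and 1134 bp against 1267 and 1575 bp. Those with Rnu11 and Rnu12, genes of the minor spliceosome, overlapped between the groups (1464 and 1317 bp against 1391 and 1441 bp, and 1525 and 1431 bp against 1408 and 1634 bp).

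Narrower regions, which the width rule did not choose, were counted in the same way. At 1000 to under 1500 bp, KO was ahead in 7 of 24 regions with an snRNA gene (29.2%) and the controls also in 7. Of all regions of that width, KO was ahead in 3.50% and the controls in 47.2%. Under 1000 bp KO was ahead in 1 of 15 (6.67%) and the controls in 3, where 7.47% and 33.5% of all regions were. Divided by library totals, KO was ahead in 11 of the 12 domains and in 15 of the 24 regions, where 28.1% and 26.9% of all regions of those widths were. Where a −log10 q of 5 or more was required, KO was ahead in 2 of 11 such domains, where 1.49% of all domains were. With the 100000 strongest summits it was also 2 of 11, where 1.71% were. Of the 26 domains with tRNA genes, KO was ahead in 0 and the controls in 14. snRNA genes have many near-identical copies, reads from which can be placed at more than 1 locus, and the part of that in the values was not tested.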
